A study of Rattus norvegicus with 24 samples.

Results

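The genes described here are 10 enzymes of mitochondrial fatty acid use, taken by gene symbol from the 10851 genes of the table: Cpt1b, Cpt2, Acadvl, Acadl, Acadm, Acad11, Hadha, Hadhb, Acaa2 and Acss1. All 10 were found. The table holds no count under 10, and the filter on low counts removed none of its genes. They were measured by RNA-seq in the medial gastrocnemius of 24 male Wistar rats, 6 in each of 4 groups. Control sedentary rats (Sed) and control exercised rats (Ex) received saline. The cardiac cachexia groups, sedentary (CC-Sed) and exercised (CC-Ex), received a single injection of monocrotaline, a plant alkaloid that raises pulmonary arterial pressure and leads to failure of the right ventricle with wasting. Ex and CC-Ex rats trained by treadmill running, and all 4 groups, the sedentary ones included, were familiarized with the treadmill and ran a maximal test before and after the training period. Some monocrotaline rats had died or were excluded before sampling, so the CC groups hold survivors that met the study's criteria for disease. The total estimated count per rat lay between 37816239 and 50350554. Values are given as CPM, the count relative to library size after TMM scaling (trimmed mean of M-values), and differences as Log2FC, the log2 fold change, with its standard error (SE). A gene is called changed when its edgeR adjusted p is under 0.05, adjusted by Benjamini-Hochberg over all 10851 genes.

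Fatty acids are burned in mitochondria. Long-chain acyl groups, activated to acyl-CoA, enter the matrix through the carnitine shuttle, in which carnitine palmitoyltransferase 1 (Cpt1b in muscle) works at the outer membrane and carnitine palmitoyltransferase 2 (Cpt2) at the inner one. In the matrix, beta-oxidation shortens the chain in repeated rounds of a dehydrogenation, a hydration, a second dehydrogenation and a thiolysis. The first step is carried out by acyl-CoA dehydrogenases of different chain preference (Acadvl, Acadl, Acadm). Acad11 belongs to the family of these dehydrogenases, and its site in the cell was not measured here. The later steps are carried out for long chains by the trifunctional protein (Hadha and Hadhb) and for shorter ones by separate enzymes with the thiolase Acaa2. Acss1 is set apart from the others, since it activates acetate and not a fatty acid, feeding the same acetyl-CoA pool. Slow oxidative fibres rely on this pathway more than the fast fibres that make up most of the gastrocnemius.

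All 10 genes had a positive Log2FC in CC-Sed over Sed, with a median of 0.72, against a median of 0.02 over all genes. The members were chosen with earlier results of these data known, so both medians are given as a description. 4 of the 10 rose: Acad11, Acadl, Cpt1b and Hadhb. Over all genes 6.46% were called in this comparison, and 4.3% were called higher. Without adjustment 8 of the 10 had p under 0.05 (all but Acadvl and Acadm), beside 28.4% of all genes. In CC-Ex over Ex the Log2FC of 6 members was positive and that of 4 was negative, the median was 0.06, and 1 member rose, Acad11, where 0.995% of all genes were called and 0.875% were called higher. Unadjusted, Acad11 and Acss1 were under 0.05 there, as were 22.6% of all genes. Ex replicate 4 was the highest Ex rat for all 10 members. Without that rat the members' median in CC-Ex over Ex was 0.22, and without CC-Ex replicate 1 it was -0.08. Averaged over both training states, the monocrotaline effect was called for 5 of 10, the same 4 together with Acss1, beside 27.8% of all genes called and 17.2% called higher. Cpt1b, Acad11 and Acss1 kept that call without any single rat, while Acadl and Hadhb lost it in 11 of 24 such fits each, those without Sed replicate 2, 3 or 5, Ex replicate 1, 2 or 6, CC-Sed replicate 1, 5 or 6 and CC-Ex replicate 1, and further CC-Ex replicate 6 for Acadl and 5 for Hadhb (edgeR adjusted p from 0.0524 to 0.0809). No member was called for training or for the difference between both monocrotaline effects, and neither was any gene of the table.

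**Figure D1:**
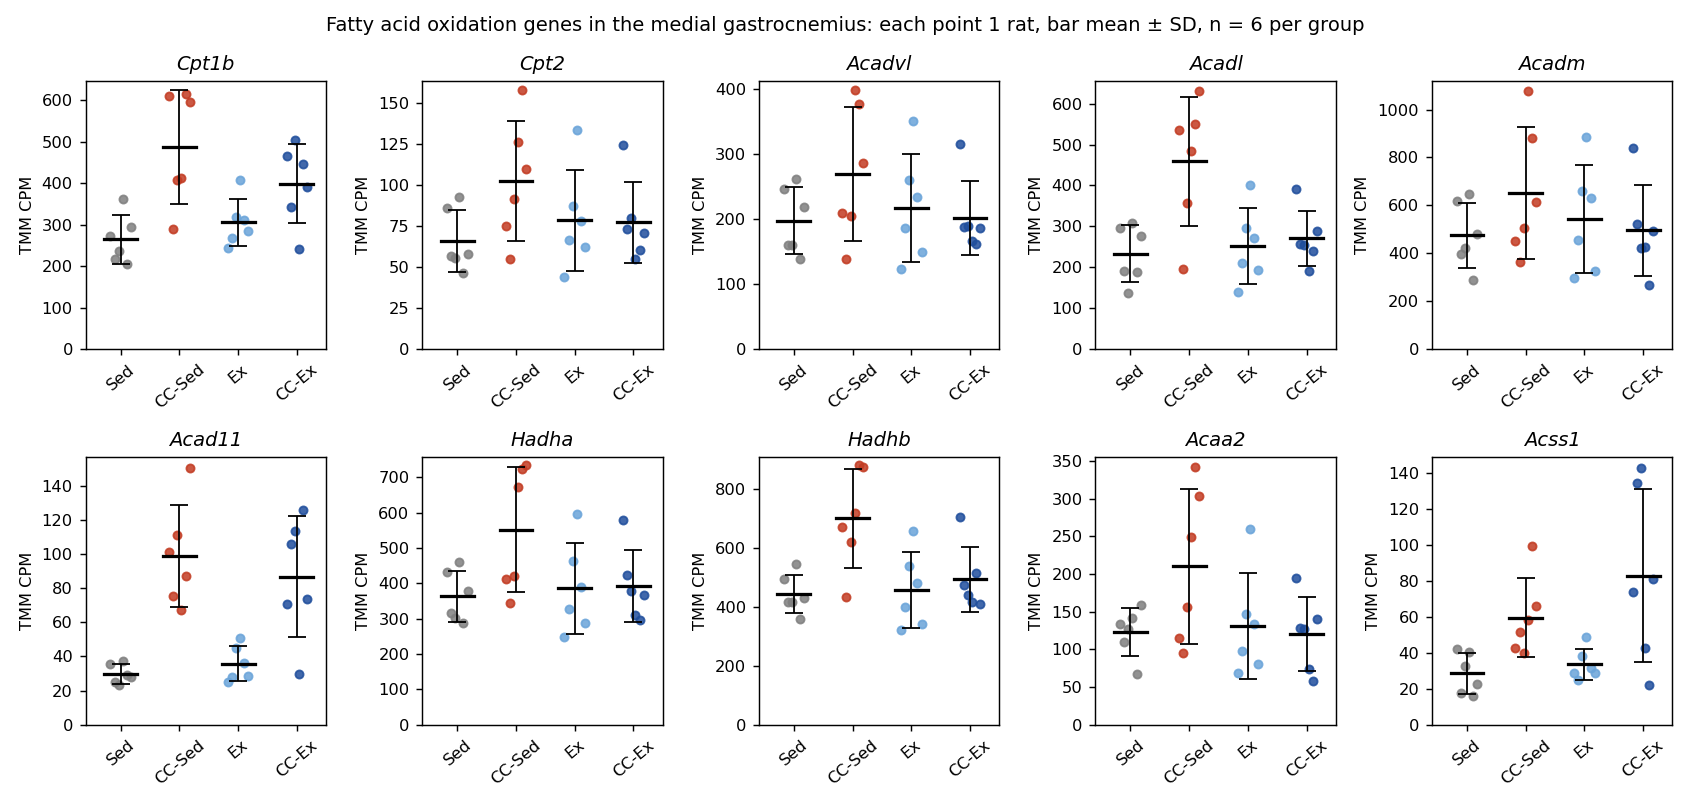
TMM CPM of each of the 10 genes (vertical axes, from 0) in every rat, by group (horizontal axes, n = 6 each), with the group mean and SD in black. The Acad11 values of the CC-Sed rats lie between 67.4 and 150.8 CPM, all above the Sed rats, while for the other 9 genes at least 1 CC-Sed rat lies within the Sed range.

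The carnitine shuttle was examined first. Cpt1b encodes the step that admits long-chain acyl groups and is held back by malonyl-CoA. Its lowest, median and highest values were 205.9, 254.3 and 362.6 CPM in Sed and 289.4, 503.7 and 615.4 CPM in CC-Sed. Replicate 2 was the one CC-Sed rat inside the Sed range, and it too exceeded the Sed median. Cpt1b rose in CC-Sed by a Log2FC of 0.89 (SE 0.20, edgeR adjusted p = 0.0147), and no left-out rat among the 24 ended this call. In the trained animals the values were 243.8, 298.0 and 407.2 CPM in Ex and 242.4, 420.0 and 504.4 CPM in CC-Ex. There 5 of 6 CC-Ex rats exceeded the Ex median and replicate 4 was the lowest of both groups, with a Log2FC of 0.39 (SE 0.20, edgeR adjusted p = 0.241).

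Cpt2 releases acyl-CoA from acylcarnitine on the matrix side. It measured 46.4, 57.6 and 93.0 CPM (lowest, median and highest) in Sed and 55.1, 100.6 and 157.8 CPM in CC-Sed, a Log2FC of 0.63 (SE 0.26, edgeR adjusted p = 0.125). The groups overlapped widely, since CC-Sed replicates 1, 2 and 3 lay within the Sed range. Ex and CC-Ex medians were 72.1 and 71.9 CPM, and the Log2FC of -0.02 had a 95% interval from -0.57 to 0.53.

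The acyl-CoA dehydrogenases carry out the first step of each round. Acadl, which takes long-chain acyl-CoA, had 136.4, 234.0 and 308.9 CPM in Sed (lowest, median and highest) and 196.4, 509.9 and 630.6 CPM in CC-Sed. 5 of 6 CC-Sed rats were above every Sed rat and replicate 2 was below the Sed median. Acadl rose by a Log2FC of 0.98 (SE 0.27, edgeR adjusted p = 0.0367). The call was lost without Sed replicate 2, 3 or 5 and without CC-Sed replicate 1, 5 or 6, with a Log2FC of 0.85 to 0.93 and an edgeR adjusted p of 0.0645 to 0.113. In the trained rats Acadl was at 139.3, 240.7 and 402.1 CPM in Ex and at 191.5, 256.6 and 390.1 CPM in CC-Ex, so that the CC-Ex range lay inside the Ex range (Log2FC 0.10, SE 0.27, edgeR adjusted p = 0.830).

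Acadvl, bound to the inner membrane and acting on very long chains, and Acadm, for medium chains, had the smallest differences of the 10 in CC-Sed. Acadvl was at 138.5, 189.1 and 262.0 CPM in Sed and at 138.9, 247.9 and 398.4 CPM in CC-Sed (Log2FC 0.45, SE 0.26, edgeR adjusted p = 0.262). Acadm was at 287.7, 451.1 and 645.7 CPM in Sed and at 364.1, 559.9 and 1079.0 CPM in CC-Sed (Log2FC 0.45, SE 0.30, edgeR adjusted p = 0.325). For both genes CC-Sed replicates 4 and 5 were above all Sed rats (for Acadvl also replicate 6), while replicates 1, 2 and 3 lay within the Sed range. Over Ex, the Log2FC in CC-Ex was -0.11 (SE 0.26) for Acadvl and -0.13 (SE 0.30) for Acadm, and neither passed the test.

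Acad11, a more distant member of the dehydrogenase family that also carries a kinase-like domain, stood apart from the others. Sed rats were at 23.5, 28.6 and 37.5 CPM and CC-Sed rats at 67.4, 94.4 and 150.8 CPM (lowest, median and highest). The groups did not overlap, which held for 3.61% of all genes in this comparison and for no other member. The Log2FC was 1.73 (SE 0.27, edgeR adjusted p = 0.00286), and the call held whichever of the 24 rats was left out. Ex rats were at 25.2, 32.5 and 50.6 CPM and CC-Ex rats at 29.7, 90.1 and 125.9 CPM. 5 of 6 CC-Ex rats were above every Ex rat, and CC-Ex replicate 4 alone lay within the Ex range at 29.7 CPM. Acad11 rose there by a Log2FC of 1.28 (SE 0.27, edgeR adjusted p = 0.0325). This call was lost in 10 of the 24 fits, those without any 1 of the Ex rats and those without CC-Ex replicate 2, 3, 5 or 6, with a Log2FC between 1.13 and 1.41 and an edgeR adjusted p between 0.0506 and 0.0923. Of all genes, 108 were called with all rats, 4 without Ex replicate 1 and 2 without any other Ex rat. Without CC-Ex replicate 2, 3, 5 or 6 it was 49, 42, 5 and 2. The Acad11 call was also lost with only the 12 rats of the comparison (edgeR adjusted p = 0.169), where 1 gene was called in all. DESeq2 kept it (adjusted p = 0.000334), where 685 genes were called. Acad11 and Acss1 were the members with a Log2FC above 1 in both comparisons. The gene Ackr4 lies within the span of Acad11 in the RefSeq annotation. Its Log2FC was -0.03 in CC-Sed over Sed and 0.18 in CC-Ex over Ex. Whether both genes share reads was not tested.

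RefSeq promoter windows of the GRCr8 assembly, which is newer than the mRatBN7.2 annotation behind the counts, were at hand for 6 of the 10 genes (Cpt2, Acadvl, Acadm, Acad11, Hadha and Hadhb). They were searched on both strands for AGGTCA, the half-site of the nuclear receptors that regulate this pathway, for that half-site repeated in the same direction with 1 base between both copies (the DR1 element of PPAR-RXR), for TCAAGGTCA (the element of estrogen-related receptors) and for GTAAACA (the FoxO element). The windows, each from 250 bases before to 50 bases after an annotated start, held AGGTCA in 3 of 6 members, Acadvl, Acad11 and Hadhb, where 16.2% of 33469 rat promoters hold it. Acad11, the member called in both comparisons, is shown with its half-site in capitals, read here on the opposite strand (GRCr8, chr8:113559962-113560211, plus strand, the 250 bases before the start).
Acad11: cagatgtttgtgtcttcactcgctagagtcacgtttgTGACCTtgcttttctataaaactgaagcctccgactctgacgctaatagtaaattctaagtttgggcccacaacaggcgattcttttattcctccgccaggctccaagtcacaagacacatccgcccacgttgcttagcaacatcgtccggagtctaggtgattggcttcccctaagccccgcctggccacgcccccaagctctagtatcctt
Acadvl is shown since it held the one DR1-like match of the 6, with up to 2 mismatches allowed, at bases -17 to -5 before the start, a class found in 3.77% of promoters. Its capitals mark that match and a second half-site (GRCr8, chr10:55236706-55236955, minus strand).
Acadvl: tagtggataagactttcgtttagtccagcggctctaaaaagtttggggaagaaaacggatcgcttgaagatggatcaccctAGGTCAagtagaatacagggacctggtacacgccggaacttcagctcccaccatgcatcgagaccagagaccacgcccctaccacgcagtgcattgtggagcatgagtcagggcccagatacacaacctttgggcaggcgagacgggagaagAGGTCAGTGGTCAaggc
In RefSeq other transcripts start 70 bases further upstream for Acad11 and 81 bases further upstream for Acadvl, so the ends of both sequences are transcribed in some models. The exact DR1 repeat (0.0538% of promoters), TCAAGGTCA (0.433%) and GTAAACA (3.78%) were in none of the 6 windows. These are matches of letters, and whether they bear on the Log2FC values was not tested. Among the genes that rose in CC-Sed, Acad11 and Hadhb held the half-site, and Cpt1b and Acadl had no window. Acadvl, with the half-site and the DR1-like match, was not among the genes that rose.

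Both subunits of the trifunctional protein come from neighbouring genes that point away from each other. Hadha, the alpha subunit, holds the hydratase and dehydrogenase activities, and Hadhb, the beta subunit, holds the thiolase. The 250 bases before the start of Hadha are shown, with the 200 bases that also belong to the window before Hadhb in capitals (GRCr8, chr6:31907551-31907800, plus strand).
Hadha: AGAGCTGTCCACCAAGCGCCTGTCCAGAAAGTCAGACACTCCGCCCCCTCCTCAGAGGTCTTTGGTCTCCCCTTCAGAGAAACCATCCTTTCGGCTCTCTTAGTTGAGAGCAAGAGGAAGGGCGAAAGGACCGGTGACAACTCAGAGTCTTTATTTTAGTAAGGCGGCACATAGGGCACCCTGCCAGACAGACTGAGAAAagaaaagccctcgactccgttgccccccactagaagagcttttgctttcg
Hadhb reads from the same 200 bases in the opposite direction (its window is chr6:31907501-31907750, minus strand). Around the group means, the log2 CPM of both genes followed each other over the 24 rats with a Pearson's r of 0.90.

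Hadhb was at 360.4, 423.8 and 546.5 CPM in Sed (lowest, median and highest) and at 434.3, 697.6 and 883.1 CPM in CC-Sed. Only replicate 2 among CC-Sed rats fell in the Sed range, near its middle. Hadhb rose by a Log2FC of 0.66 (SE 0.19, edgeR adjusted p = 0.0415). The call was lost in 10 fits that left out 1 rat (Sed replicate 1, 2, 3, 5 or 6, Ex replicate 5, or CC-Sed replicate 1, 3, 5 or 6), with a Log2FC of 0.57 to 0.69 and an edgeR adjusted p of 0.0503 to 0.126, and under upper-quartile scaling (edgeR adjusted p = 0.0614). Hadha was at 288.5, 347.3 and 460.3 CPM in Sed and at 344.9, 546.0 and 733.5 CPM in CC-Sed. Replicates 4, 5 and 6 lay above every Sed rat and the other 3 within the Sed range, and the Log2FC of 0.60 (SE 0.23, edgeR adjusted p = 0.0947) did not pass. It passed without CC-Sed replicate 2 (edgeR adjusted p = 0.0453) and with a respiratory chain covariate described further on (edgeR adjusted p = 0.0153). In the trained rats neither subunit was called, with a Log2FC of 0.11 (SE 0.19) for Hadhb and of 0.03 (SE 0.23) for Hadha.

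Acaa2, the medium-chain thiolase, spread the most within CC-Sed of the 10 genes on the log2 scale, with an SD of 0.77. It was at 66.5, 130.5 and 158.8 CPM in Sed and at 94.8, 202.8 and 341.3 CPM in CC-Sed, with replicates 4, 5 and 6 above every Sed rat and 4 of 6 rats above the Sed median. The Log2FC of 0.77 (SE 0.35, edgeR adjusted p = 0.153) did not pass, nor did that of -0.12 (SE 0.35) in CC-Ex over Ex.

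Acss1, the acetate enzyme, showed another pattern over the groups. Its lowest, median and highest values were 15.8, 27.7 and 42.2 CPM for Sed and 39.7, 54.8 and 99.5 CPM for CC-Sed. They were 25.0, 30.2 and 49.0 CPM for Ex and 22.3, 77.5 and 142.8 CPM for CC-Ex. CC-Sed replicate 3 was within the Sed range and the other 5 were above it. CC-Ex replicates 2 and 3 were above 130 CPM, while replicates 4 and 5 fell within or below the Ex range. The Log2FC was 1.06 (SE 0.35, edgeR adjusted p = 0.0657) in the sedentary and 1.30 (SE 0.35, edgeR adjusted p = 0.0645) in the exercised comparison, both short of the threshold. Leaving out CC-Ex replicate 5 brought the former to an edgeR adjusted p of 0.0204, and leaving out CC-Ex replicate 1 or 4 brought the latter to 0.0450 and 0.0213. Averaged over both, Acss1 rose by 1.18 (SE 0.25, edgeR adjusted p = 0.00269). DESeq2 called Acss1 in both comparisons, at adjusted p = 0.0305 and 0.00965. It was the one member whose Log2FC did not get smaller with training, at a difference between both effects of 0.24 (95% interval from -0.78 to 1.27).

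**Figure D2:**
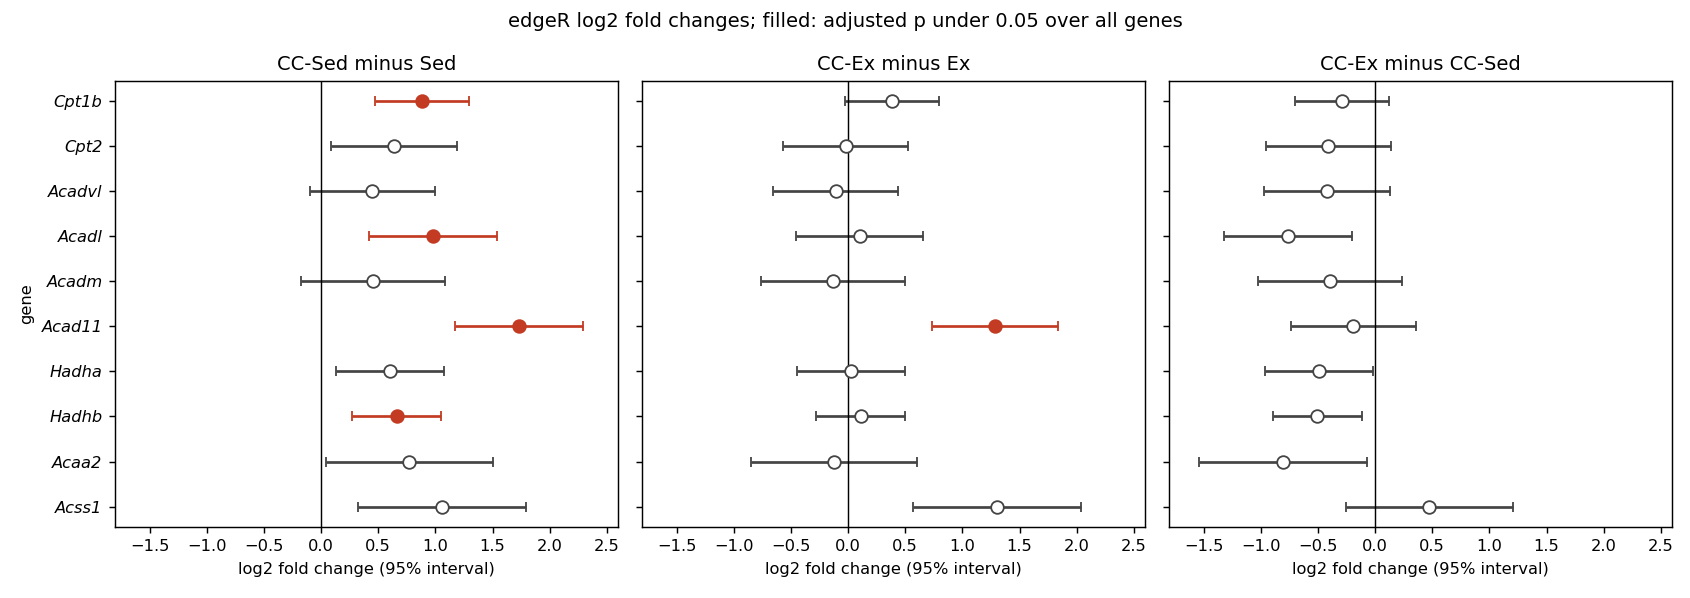
Log2FC of the 10 genes (points) with 95% intervals (bars) for CC-Sed over Sed, CC-Ex over Ex and CC-Ex over CC-Sed, from edgeR on all 24 rats; filled points have an adjusted p under 0.05. All 10 points lie right of 0 in the first panel, 6 in the second and 1, Acss1 at 0.48, in the third.

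The 2 comparisons use separate rats, and the difference between both monocrotaline effects was itself tested. It was negative, that is, smaller in the trained animals, for 9 of 10 members, with a median of -0.57, and the adjusted p was 1.00 for each. The unadjusted edgeR p was 0.0294 for Acadl (difference -0.88, SE 0.38) and 0.0485 for Hadhb (difference -0.55, SE 0.26), where 1.42% of all genes were under 0.05. DESeq2 and limma-voom called no gene either. The loss of calls in the exercised comparison is thus not shown to be a difference between sedentary and trained animals for any member.

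Training itself was compared in saline and in monocrotaline rats. In Ex over Sed all 10 Log2FC values were positive and small, from 0.04 (Hadhb) to 0.26 (Acad11), with no member called by edgeR, none under an unadjusted p of 0.05, and 1.09% of all genes under it. In CC-Ex over CC-Sed 9 of 10 were negative, with a median of -0.41. Acadl was lower in CC-Ex by a Log2FC of -0.76 (SE 0.27), and all 6 CC-Ex rats were below the CC-Sed median. Acaa2 (-0.80, SE 0.35) was likewise below that median in all 6, while Hadhb (-0.51, SE 0.19) and Hadha (-0.49, SE 0.23) were below it in all but 1 rat, replicate 1. The unadjusted p of these 4 was 0.00908, 0.0313, 0.0124 and 0.0404 in that order, where 2.16% of all genes were under an unadjusted p of 0.05 and 1.09% were under it and lower. None passed adjustment in edgeR (adjusted p = 1.00), and DESeq2 and limma-voom called none. For the training effect averaged over saline and monocrotaline, no member had an unadjusted p under 0.05, beside 1.75% of all genes. The comparison of CC-Ex with CC-Sed shares the CC-Sed rats with the sedentary one, so both draw on the same high CC-Sed values.

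Respiratory chain genes, which make up the other large share of mitochondrial energy transcripts, did not go the same way. Of 22 listed subunits of complexes I to V and cytochrome c, 21 were measured, and edgeR called none in any of the 7 contrasts. For the averaged monocrotaline effect limma-voom called 4 and edgeR called 4 without CC-Sed replicate 4, whereas DESeq2 called none. In CC-Sed over Sed none had an unadjusted p under 0.05, DESeq2 and limma-voom called none, and the smallest p belonged to Sdhc (Log2FC -0.37), Ndufb8 (-0.43) and Cyc1 (-0.32). Their Log2FC had a median of -0.08 in CC-Sed over Sed, and in CC-Ex over Ex all 21 were negative with a median of -0.25. Within each rat, the mean log2 CPM of the 10 members minus that of the respiratory chain genes was -1.47 ± 0.13 (SD, n = 6) in Sed and -1.43 ± 0.15 in Ex. CC-Sed rats had -0.50 ± 0.51 and CC-Ex rats -0.81 ± 0.50. The Sed rats ran from -1.60 to -1.29 and the CC-Sed rats from -1.18 to 0.23, so these groups did not overlap. In CC-Ex, replicate 4, at -1.67, lay below every Ex rat, and the other 5, from -0.98 to -0.34, lay above all of them. With the respiratory chain mean of each rat as a covariate, edgeR called all 10 members in CC-Sed over Sed, with adjusted p from 0.00426 (Acad11) to 0.0358 (Acadvl), where 1135 of 10851 genes were called. In the exercised comparison that fit called none of the 10 and 1 gene in all. The covariate was measured in the same libraries and itself differed between groups, at a mean of 8.67 in Sed and 8.48 in CC-Sed. The members' median Log2FC in CC-Sed over Sed was 0.85 with it and 0.72 without it. These calls thus describe the members relative to the respiratory chain genes and are no firmer count of members that rose.

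**Figure D3:**
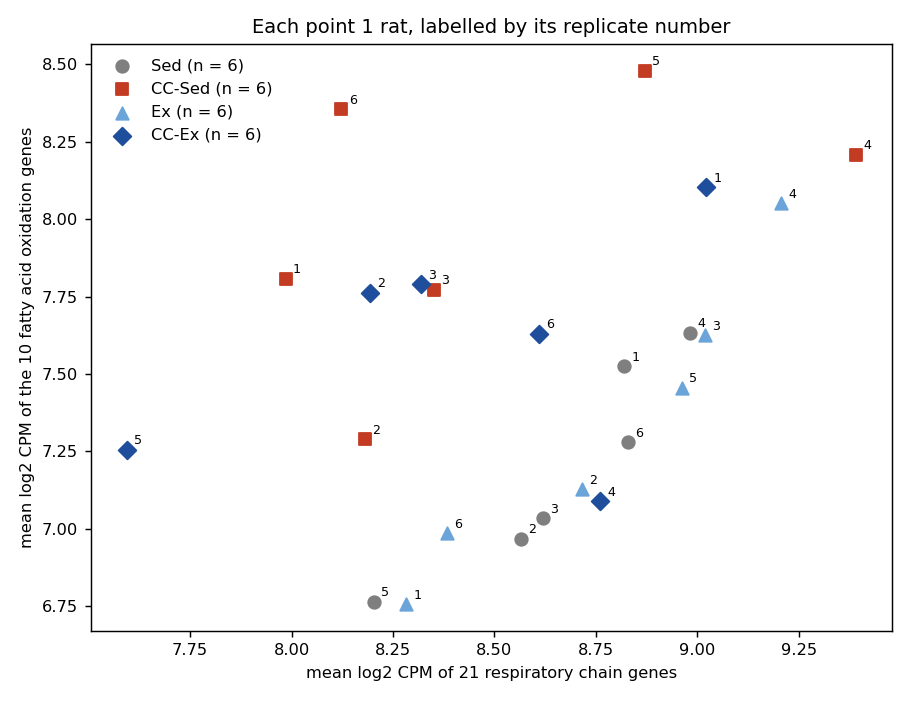
Mean log2 CPM of the 10 members (vertical) against that of 21 respiratory chain genes (horizontal) in each of 24 rats, labelled by replicate number, 6 per group. Sed and Ex rats lie along a common line on which the members were 1.15 to 1.60 below the respiratory chain genes; 5 of 6 CC-Sed and 5 of 6 CC-Ex rats lie above that band, CC-Sed replicate 4 (-1.18) lies just inside it and CC-Ex replicate 4 (-1.67) below it.

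The members also differed in how they varied among rats of the same group. Around the group means, Pearson's r over the 24 rats with the respiratory chain mean was highest for Acadm (0.89), Acadvl (0.78), Acaa2 (0.71), Cpt2 (0.70) and Hadha (0.69). It was 0.51 for Hadhb, 0.47 for Acadl, 0.45 for Acss1, 0.15 for Cpt1b and -0.26 for Acad11. The 5 members with the lowest values were the 5 called for the averaged monocrotaline effect, an order noticed after the values were seen. Spearman's rho gave 0.88 for Acadm and -0.17 for Acad11. Without the 2 rats farthest from the median on the respiratory chain axis, r was 0.87 for Acadm, -0.04 for Acad11, 0.34 for Cpt1b, 0.33 for Acss1, 0.52 for Acadl and 0.66 for Hadhb. The low values of Acad11 and Cpt1b thus depended in size on those rats, while the same 5 members stayed the lowest. All values share libraries and scaling factors and are given as descriptions.

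Among the 45 pairs of members the median r was 0.75, with 18 pairs above 0.8 and 12 below 0.5. The remaining genes of the table had a median r of 0.01 with the members' mean, which is a measure unlike the r of a pair. Acadvl and Hadha were the closest pair (0.96), and Acadm and Acad11 the most distant (0.13). Acad11 had a median r of 0.39 with the other 9 and Acss1 one of 0.49, whereas Hadha had 0.90 and Cpt2 had 0.88. Cpt1b lay between these, with a median r of 0.65 and an r of 0.47 with Acadm. The median r with the other members was thus lowest for Acad11 and Acss1. Single pairs still reached 0.69 (Acad11 with Cpt1b) and 0.68 (Acss1 with Acaa2).

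**Figure D4:**
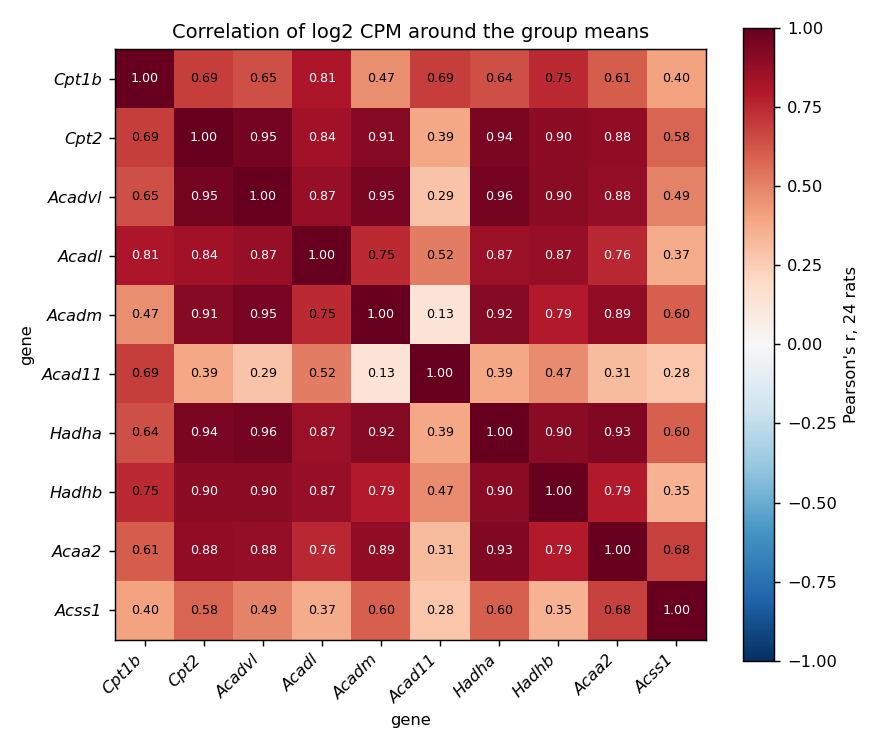
Pearson's r between each pair of the 10 genes (rows and columns) over 24 rats, on log2 CPM after removal of the group means. Cpt2, Acadvl, Hadha, Hadhb and Acadl form a block of high values, with 0.96 between Acadvl and Hadha, and the row of Acad11 is the palest, down to 0.13 with Acadm.

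Outside the 10, the gene whose pattern was nearest to the mean of the members was Hsdl2 (r = 0.97, Spearman's rho 0.96), a peroxisomal and mitochondrial dehydrogenase-like protein. It was followed by Etfdh (0.97) and Etfa (0.96), which pass electrons from the acyl-CoA dehydrogenases to the respiratory chain, and by Acot2, Ech1, Twf2, Slc25a20, Acsl1, Eci2 and Slc25a22, the last at 0.90. For single members the nearest gene was Etfdh for Cpt2 (0.97) and Hadha (0.96), Etfa for Acadvl (0.98), Hsdl2 for Acadl (0.91) and Hadhb (0.91), and Acads, the short-chain dehydrogenase, for Acaa2 (0.92). Acadm was nearest to Ckmt2 (0.97), the mitochondrial creatine kinase of striated muscle. Acad11 was nearest to Ccdc66 (0.89) and Acss1 to Tenm3 (0.89). Cpt1b was nearest to Chkb (0.93), a choline kinase whose gene lies 118 bases from Cpt1b in RefSeq. Chkb rose in CC-Sed by a Log2FC of 0.71 (SE 0.18, edgeR adjusted p = 0.0225). Neighbouring genes can share reads, and whether the estimated counts of this pair do was not tested.

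The rest of the pathway was followed by lists. In fatty acid activation and the carnitine shuttle, 3 of 9 measured genes rose in CC-Sed over Sed, and none fell. These were Acacb (0.75, SE 0.15, edgeR adjusted p = 0.00796), which makes the malonyl-CoA that holds back Cpt1b, Mlycd (0.83, SE 0.21, edgeR adjusted p = 0.0247), which breaks malonyl-CoA down, and Acsf2 (1.65, SE 0.45, edgeR adjusted p = 0.0350), an acyl-CoA synthetase of medium chains. Acacb did not overlap between both groups, at 195.0 to 288.1 CPM in Sed and 305.1 to 488.0 CPM in CC-Sed. The maker and the remover of the inhibitor of Cpt1b were thus both higher. Slc25a20 (carnitine-acylcarnitine translocase) was at 0.35 and Acsl1 at 0.28, and they were among the 6 that did not pass. Acsl6, another acyl-CoA synthetase, was the one gene of the list with a negative value (-0.80, SE 0.44), and it fell in the averaged monocrotaline effect (-0.89, SE 0.31, edgeR adjusted p = 0.0360). Without 1 rat, between 1 and 4 genes of this list were called.

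Of the other mitochondrial beta-oxidation enzymes, 4 of 11 rose and none fell. Decr1, a reductase for polyunsaturated chains, rose from 19.0 to 35.2 CPM in Sed to 39.9 to 85.1 CPM in CC-Sed, without overlap (Log2FC 1.21, SE 0.27, edgeR adjusted p = 0.0147). Ech1, which also serves unsaturated chains, rose by 0.87 (SE 0.20, edgeR adjusted p = 0.0164), the thioesterase Acot2 by 1.10 (SE 0.33, edgeR adjusted p = 0.0484) and Acad9, a dehydrogenase that also helps to assemble complex I, by 0.79 (SE 0.23, edgeR adjusted p = 0.0446). The list's median Log2FC was 0.53, and 1 to 5 of its genes were called without 1 rat. None of the 3 measured genes of electron transfer from the dehydrogenases passed, the nearest being Etfdh (0.69, SE 0.23, edgeR adjusted p = 0.0637), with Etfa at 0.42 and Etfb at 0.24. Of 4 dehydrogenases of branched-chain and other amino acids, Acadsb rose by 0.43 (SE 0.11, edgeR adjusted p = 0.0302), while Ivd (0.43, SE 0.15) and Acad8 (0.11, SE 0.08) did not pass.

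Of peroxisomal beta-oxidation, which shortens chains too long for mitochondria, 2 of 8 measured genes rose in CC-Sed, and between 0 and 3 were called without 1 rat. Ehhadh, an enzyme with hydratase and dehydrogenase activities, was among them (0.74, SE 0.22, edgeR adjusted p = 0.0479). Acaa1a, a thiolase of the same pathway, was at 0.24 (SE 0.08, edgeR adjusted p = 0.0691). None of 4 genes of acetyl-CoA and ketone body use passed, with Acat1 at 0.12 and Oxct1 at -0.23. In CC-Ex over Ex, no gene of these 6 lists was called by edgeR, with list medians from -0.08 to 0.25; 7 of their genes had an unadjusted p under 0.05, DESeq2 called 1 and limma-voom 4.

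Among 13 regulators of fatty acid oxidation, 2 rose in CC-Sed. Foxo1, a transcription factor of fasting, was at 9.63, 12.3 and 17.2 CPM in Sed and at 16.9, 63.4 and 126.5 CPM in CC-Sed (Log2FC 2.40, SE 0.52, edgeR adjusted p = 0.0138). It was the one gene of these lists that edgeR also called in CC-Ex over Ex (2.45, SE 0.52, adjusted p = 0.0329). That count of 1 regulator was 0 without any single Ex rat or CC-Ex replicate 5 or 6, 2 without CC-Sed replicate 4 or CC-Ex replicate 1, 4 without CC-Ex replicate 4, 3 by DESeq2 and 4 by limma-voom. Ppard, a receptor for fatty acids, rose in CC-Sed by 0.73 (SE 0.18, edgeR adjusted p = 0.0210). Pdk4, which shuts off carbohydrate entry by blocking pyruvate dehydrogenase, was at 36.1, 121.9 and 645.1 CPM in Sed and at 662.9, 1248 and 1738 CPM in CC-Sed. These groups did not overlap, yet the spread among Sed rats was wide, and the Log2FC of 2.36 (SE 0.81, edgeR adjusted p = 0.0718) did not pass. The other 10 regulators did not pass either, and the list median was -0.03. Among these, the paralogous coactivators of mitochondrial genes Ppargc1a and Ppargc1b had opposite signs, 1.10 (SE 0.46) and -1.08 (SE 0.53). Between 1 and 4 regulators were called in CC-Sed without 1 rat. For the averaged monocrotaline effect 4 of 13 rose and 2 fell, Ppargc1b (-1.03, SE 0.38, edgeR adjusted p = 0.0449) and the mitochondrial deacetylase Sirt3 (-0.53, SE 0.16, edgeR adjusted p = 0.0202). Of all genes, 27.8% were called for this effect and 17.2% were called higher.

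**Figure D5:**
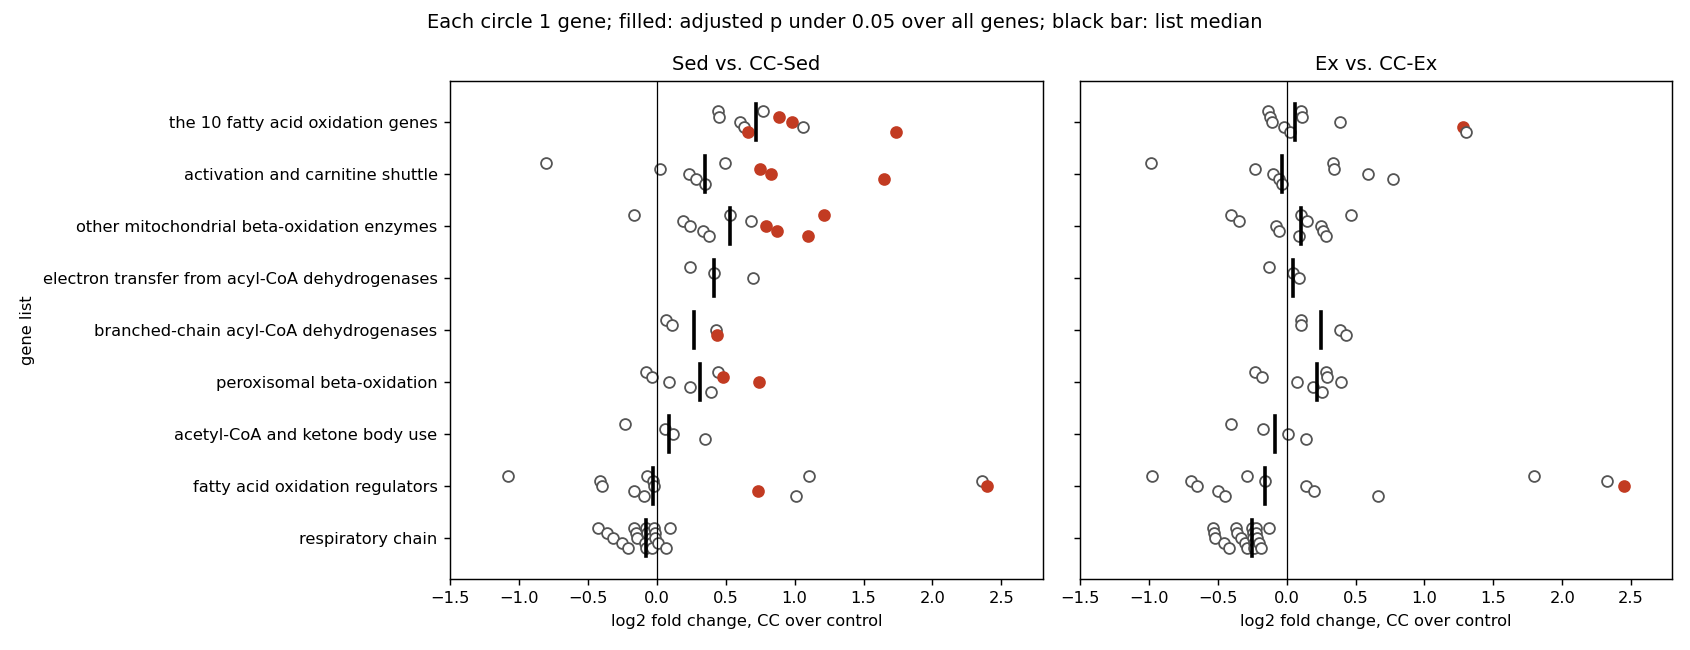
Log2FC of every measured gene (circles) in the 10 members and 8 related lists (rows) for CC-Sed over Sed and for CC-Ex over Ex; filled circles have an edgeR adjusted p under 0.05 and the black bar is the list median. The members' median is 0.72 in the first panel and 0.06 in the second, where all 21 respiratory chain genes lie left of 0.

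Bulk muscle mixes fibres and other cells, and more fibres of one type cannot be told apart from more RNA per fibre. The labelled tissue carried its markers, since all 8 skeletal muscle markers were measured, at a mean log2 CPM of 12.6 in each group. None of them was called. Slow-fibre markers, of which 6 of 9 were measured (Myh7, Myl2 and Tnnt1 were not analysed here), differed widely within groups. Their mean log2 CPM ran from 4.33 to 8.71 in Sed, from 4.81 to 10.3 in CC-Sed, from 4.13 to 10.1 in Ex and from 2.45 to 9.95 in CC-Ex. None of the 6 passed in CC-Sed over Sed, with a median Log2FC of 1.67 (Atp2a2 1.13, Tpm3 1.97, Tnnc1 2.01). All 9 measured fast-fibre markers had a negative Log2FC (median -0.41, none called), led by Pvalb (-1.39), Myl1 (-0.56) and Tnni2 (-0.45). Around the group means, the slow-fibre mean followed each member, with r from 0.40 (Acad11) to 0.77 (Acaa2). With it as a covariate the same 4 members were called in CC-Sed over Sed, at a Log2FC of 1.64 for Acad11, 0.73 for Cpt1b, 0.71 for Acadl and 0.52 for Hadhb, while Cpt2 went from 0.63 to 0.36, Acadvl from 0.45 to 0.18 and Acadm from 0.45 to 0.15. That fit called 1446 of 10851 genes, beside 701 without the covariate, and the members' median Log2FC was 0.44 instead of 0.72. CC-Ex replicates 4 and 5 had the lowest slow-fibre means of all rats, 3.00 and 2.45.

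Markers of other cells were read beside these results, and their part in them was not tested. In CC-Sed over Sed, edgeR called none of 3 measured adipocyte markers of 8 listed (Adipoq -1.02, Cfd -0.70, Fabp4 0.06), with Plin1, Lep, Retn, Pck1 and Cidec not analysed here. It also called none of 6 fibroblast markers (Col1a1 -1.09, Col1a2 -0.97, Col3a1 -0.98), 5 macrophage markers (Cd163 0.77, Mrc1 0.55, Ptprc -0.22), 3 erythroid markers (Hba-a1 0.68, Hbb 0.69, Hba-a3 0.50) or 2 satellite cell markers (Myf5 0.94, Cdh15 0.04). Of 5 endothelial markers Vwf rose, by 1.41 (SE 0.26, edgeR adjusted p = 0.00596), while Kdr (0.63) and Tek (-0.26) did not pass, and Vwf rose also in CC-Ex over Ex by 1.12 (SE 0.26, edgeR adjusted p = 0.0383). The mean log2 CPM of the fibroblast markers was 5.25 to 7.74 in Sed, 5.55 to 7.09 in CC-Sed, 6.09 to 8.50 in Ex and 3.74 to 7.12 in CC-Ex. For the averaged monocrotaline effect, in which 5 members rose, more markers were called, beside 27.8% of all genes called and 17.2% called higher. Of 6 fibroblast markers 3 fell, Col1a1 (-1.64), Col1a2 (-1.39) and Col3a1 (-1.46), and of 3 adipocyte markers 1 fell, Adipoq (-1.09). Of 3 erythroid markers 2 rose, Hbb (1.11) and Hba-a1 (1.06), as did 2 of 5 endothelial markers, Vwf (1.26) and Kdr (0.60), and 1 of 2 satellite cell markers, Myf5 (0.65). No macrophage, slow-fibre or fast-fibre marker was called by edgeR there, and 4 of these (Atp2a2, Tnni2, Pvalb and Myl1) had an unadjusted p under 0.05.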

How the data were processed

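Poly-A RNA of the left medial gastrocnemius of 24 rats was sequenced from stranded libraries, 1 per rat. The authors trimmed reads with Trim Galore, quantified transcripts with Salmon against an Ensembl annotation of mRatBN7.2 and summed them to genes with tximport. The deposited values are estimated counts per gene, with no value under 10, so weakly expressed genes are not analysed here. They were rounded to whole numbers, with totals of 37816239 to 50350554 per rat. A gene with few reads or a near-identical relative is estimated with more error by such transcript models.

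Groups came from the sample labels. The counts were fitted in edgeR 4.0.16 (R 4.3.3) with TMM scaling and the quasi-likelihood test in 1 model of 4 groups, with 7 contrasts: both monocrotaline effects, both training effects, the mean of each pair and the difference between the monocrotaline effects. Intervals are 95%, with 20 degrees of freedom, and log2 CPM used a prior count of 2. The study's own criteria add a Log2FC of at least 1 in size. Alternatives were DESeq2 1.42.0, limma-voom (limma 3.58.1), other scaling and filters, covariates, a replicate block and leaving out each rat. The other filters removed no gene, so those fits were the same as the main one. The scripts were tested on simulated counts.

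The members and lists were chosen with earlier results of these data known. Named genes were the members, the 3 with the smallest p in each list in CC-Sed over Sed with any other that passed in lists of up to 12, the 10 genes most like the members' mean, and each member's nearest gene. Ackr4, Ppargc1a, Ppargc1b, Sirt3 and Acsl6 were named after their values were seen. Some genes that this rule names are not reported here.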

Additional observations from a re-analysis of the deposited data

Results flagged for a closer look

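Of 40 checks (10 members in 4 groups of 6 rats), 3 found 1 rat set far apart from the other 5 of its group. Chance alone gives such a result in about 1 of 20 checks. All 3 were CC-Ex replicate 1 on the high side. Around the group means these 3 genes followed each other over the rats, with Pearson's r of 0.90 to 0.95, so the 3 results are not separate observations. Cpt2 was at 124.4 CPM there and at most 79.8 CPM in the other CC-Ex rats. Acadvl was at 315.0 CPM, with the next rat at 189.1 CPM. Hadhb was at 704.5 CPM, with the next rat at 514.7 CPM. Without this rat the Log2FC in CC-Ex over Ex was -0.21 for Cpt2, -0.28 for Acadvl and -0.019 for Hadhb. No member's monocrotaline effect differed between sedentary and trained rats after adjustment.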

How the results depend on the processing

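In CC-Sed over Sed the 10 members kept a positive Log2FC in every alternative run. The count of 4 called became 1 with the study's added fold criterion and 10 with the respiratory chain covariate, and lay between 2 and 5 in the fits without 1 rat (2 without Sed replicate 2, 3 or 5 or CC-Sed replicate 1, 5 or 6). Without Sed replicate 2, 3 or 5, edgeR called 204, 233 and 290 of all genes. Without CC-Sed replicate 1, 5 or 6 it called 202, 422 and 173, beside 701 with all rats. In CC-Ex over Ex the count of 1 became 2 with DESeq2, limma-voom or the slow-fibre covariate, 0 with the respiratory chain covariate or only the 12 rats of the comparison, and 0 to 2 without 1 rat. For the averaged monocrotaline effect the count of 5 became 2 with the fold criterion, 3 with upper-quartile scaling, 10 with the respiratory chain covariate and 3 to 5 without 1 rat. With that covariate 2104 of all genes were called for the averaged effect, beside 3017 without it. The training and interaction counts stayed at 0 throughout. The members' median Log2FC in CC-Ex over Ex, 0.06 in the main fit, was 0.17 with limma-voom or the slow-fibre covariate. It was 0.29 with the library number and 0.30 with the respiratory chain covariate. DESeq2 gave 0.07, the replicate block 0.08 and upper-quartile scaling 0.004. Over all genes, edgeR called 701 in CC-Sed over Sed, DESeq2 1331 and limma-voom 2474, and in CC-Ex over Ex 108, 685 and 1043. Causes were not tested.

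Replicate numbers join different animals, and their mean correlation across groups ran from -0.23 to 0.09, so they were not taken as pairs. With the replicate block the exercised count was 0 and that gene list fell to 1 gene, Hadhb in CC-Sed had an edgeR adjusted p of 0.0545, and Cpt2 in CC-Ex turned to 0.026.

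Signs turned only for small values that were not called. In CC-Ex over Ex, Cpt2 turned to 0.15 with the library number as a covariate, 0.12 with limma-voom, 0.14 with the slow-fibre and 0.30 with the respiratory chain covariate; Acadvl to 0.10, 0.060 and 0.24 with the library number, slow-fibre and respiratory chain covariates; Acadm to 0.018 with limma-voom, 0.026 and 0.30 with the latter 2 covariates; Hadha to -0.031 with upper-quartile scaling; and Acaa2 to 0.34, 0.18, 0.036 and 0.31 with library number, limma-voom, slow-fibre and respiratory chain. In Ex over Sed the slow-fibre covariate gave -0.051 for Acadvl, -0.078 for Acadl, -0.025 for Acadm, -0.086 for Hadha, -0.061 for Hadhb and -0.23 for Acaa2, the respiratory chain covariate -0.0025 for Hadha, -0.0092 for Hadhb and -0.077 for Acaa2, and limma-voom -0.0020 for Hadhb and -0.067 for Acaa2. Cpt1b turned to 0.0062 for the averaged training effect with the library number. The library number is the leading number of each library's name, and the lowest ones all belong to monocrotaline rats. It is thus partly confounded with treatment, and with it 42 of all genes were called in CC-Ex over Ex, beside 108 without it.

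Without 1 rat, CC-Ex over Ex ran from -0.21 to 0.20 for Cpt2, -0.28 to 0.079 for Acadvl, -0.032 to 0.28 for Acadl, -0.35 to 0.062 for Acadm, -0.12 to 0.19 for Hadha, -0.019 to 0.24 for Hadhb and -0.32 to 0.19 for Acaa2. Ex over Sed ran from -0.053 to 0.26 for Acadvl, -0.070 to 0.24 for Acadl, -0.0021 to 0.32 for Acadm, -0.082 to 0.19 for Hadha, -0.091 to 0.13 for Hadhb and -0.22 to 0.22 for Acaa2. The averaged training effect ran from -0.10 to 0.015 for Cpt1b, -0.19 to 0.0031 for Cpt2, -0.21 to 0.0028 for Acadm and -0.028 to 0.12 for Acad11. The lowest estimated count of a member in any rat was 697.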
